A study of Caenorhabditis elegans with 2 samples.

Results

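The madf genes of Caenorhabditis elegans encode proteins with a MADF domain, a DNA-binding fold related to Myb and named after the Drosophila factor Adf-1. All 10 protein-coding genes whose name starts with madf- in the Ensembl annotation were taken, out of 19973 protein-coding genes on the nuclear chromosomes. They are madf-1, madf-2, madf-3, madf-4, madf-5, madf-6, madf-8, madf-9, madf-10 and madf-11. For each gene, every deposited peak that touched the window from 1000 bp upstream of the annotated 5' end to the gene end was collected. The choice of genes used no measured value.

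The binding data are for the product of one of these genes, MADF-3. The 2 samples are biological replicates of strain RW12241, in which TY1, EGFP and 3xFLAG sequences were placed by CRISPR at madf-3 on chromosome II, so the tagged protein comes from the gene's own locus. Whole young adults were taken at 63 hours after synchronisation as starved L1 larvae, and sonicated chromatin was pulled down with an antibody to GFP. All cell types are mixed, so a peak in few cells and a weak peak in all cells cannot be told apart. Both samples carry the tag, and no untagged worms are compared here.

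MADF domains bind DNA in Drosophila, where the best known member, Adf-1, is a transcription factor. Transcription factors can bind at their own gene or at those of their relatives, a known form of feedback in gene regulation. Binding was read from lists of peaks ranked by the irreproducible discovery rate (IDR), a measure of how well a peak keeps its rank between 2 compared sets. The series-wide ranked list holds 113502 candidate peaks, most of them weak, and the thresholded list the 2741 of them that were kept, whose highest IDR was 0.00999. The signal is the peak caller's strength for a peak as the authors deposited it. No source states its scaling, the lists give no read counts, and so the depth is unknown.

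Thresholded MADF-3 peaks lay at 2 of the 10 genes, madf-10 and madf-11, and not at madf-3 itself or at madf-4, madf-9 and madf-5, the closest to it in sequence. There were 3 such peaks, 2 at madf-11 and 1 at madf-10. The same rule called 12.2% of all protein-coding genes, beside 20% of the madf genes (2 of 10). The exact Clopper-Pearson 95% interval, 2.52 to 55.6%, covers counting error only and takes the 10 genes as independent draws. A whole named family is no such sample, so the interval shows only how little 10 genes can tell. The madf windows are also longer, with a median of 4016 bp against 3027 bp over all protein-coding genes, and the part of length in the count was not tested. The peak just upstream of madf-11 was the only one near a 5' end. Counting only summits within 500 bp of the 5' end, 1 of 10 madf genes had a peak, against 6.26% of all protein-coding genes. In the 1000 bp upstream alone, which takes gene length out of the count, it was again 1 of 10, against 7.23%.

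The 2 sequences below are the peaks at madf-11, the thresholded peaks of this family with a summit outside coding sequence. The thresholded peak at madf-10, with its summit in coding sequence, is not printed. They are read from the RefSeq genome of the WBcel235 assembly, the build called ce11, on the plus strand from 5' to 3'. Capitals mark matches to 2 words of 8 bases described further on. The upstream peak covers chrIII:5603667-5603886 and the intronic peak chrIII:5602132-5602351.
madf-11 upstream peak: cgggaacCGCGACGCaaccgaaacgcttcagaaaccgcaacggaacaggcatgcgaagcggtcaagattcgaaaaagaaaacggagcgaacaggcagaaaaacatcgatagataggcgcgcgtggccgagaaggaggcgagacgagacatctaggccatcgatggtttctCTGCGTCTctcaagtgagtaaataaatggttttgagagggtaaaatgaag
madf-11 intronic peak: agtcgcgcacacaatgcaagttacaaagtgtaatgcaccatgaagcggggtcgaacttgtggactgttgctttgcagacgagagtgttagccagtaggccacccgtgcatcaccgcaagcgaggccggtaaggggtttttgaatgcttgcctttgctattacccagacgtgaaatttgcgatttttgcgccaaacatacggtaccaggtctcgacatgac

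madf-11 (WBGene00015468) runs on the minus strand of chromosome III from 5600381 to 5603489 and encodes the longest protein of the family, of 516 residues. Its upstream peak had its summit at -288 bp, where negative means upstream of the 5' end. The signal there was 39.1 in replicate 1 and 37.1 in replicate 2, or 38.1 ± 1.39 (SD, n = 2). The intronic peak, 1247 bp into the gene, had 44.8 in replicate 1 and 42.5 in replicate 2, or 43.7 ± 1.60 (SD, n = 2). The deposited values of the replicates were close at both places. In the series-wide list the signals were 73.1 and 85.0, around the list's median of 73.1, so these peaks are of middling strength in a list that reaches 3403.

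The upstream peak of madf-11 lay in the 970 bp between this gene and the divergent gene xnd-1, whose product shapes where meiotic crossovers form and is found on autosomes. The summit was nearer to madf-11, at -683 bp from the 5' end of xnd-1 (WBGene00001514), and xnd-1 had no thresholded peak within 500 bp of its own 5' end. The peak also overlapped C05D2.14, an annotated non-coding RNA gene on the plus strand, by 90 bp, and its summit was outside that gene. The intronic peak had its summit inside C05D2.17, a non-coding RNA gene, and overlapped the snoRNA gene C05D2.15 by 48 bp and the non-coding RNA gene C05D2.16 by 18 bp. Small nucleolar RNAs guide the modification of ribosomal and other RNAs and in worms often sit inside introns. Of all 2741 thresholded peaks, 12.3% overlapped a snoRNA or ncRNA gene, and of all series-wide ranked peaks 3.57%. Whether the RNA genes have a part in these 2 peaks was not tested.

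madf-10 (WBGene00013717) is the shortest of the genes, with 885 bp on the minus strand of chromosome I from 10436895 to 10437779, and encodes the shortest protein, of 234 residues. Its peak, from 10436905 to 10437124, had its summit 764 bp into the gene, in coding sequence of the last exon. The signal was 49.1 in replicate 1 and 51.0 in replicate 2, or 50.0 ± 1.32 (SD, n = 2), and 83.7 in the series-wide list. madf-10 had no thresholded peak upstream of its 5' end. Its strongest ranked peak in the 1000 bp upstream had a series-wide signal of 24.8, close to the median of 25.2 over all ranked peaks.

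The gene end of madf-10 faces that of rpl-30, which encodes a protein of the large ribosomal subunit and runs towards it on the plus strand. The summit was 761 bp from the 5' end of rpl-30, slightly nearer to it than to that of madf-10. A separate thresholded peak, with a series-wide signal of 63.3, lay within 500 bp of the 5' end of rpl-30 (WBGene00004444). No annotated RNA gene overlapped the madf-10 peak.

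All 3 peaks are also in the conservative list, whose 2631 peaks are all rows of a ranked list made from both replicates. The thresholded lists of the single replicates were less complete. The list of replicate 1, with 962 peaks, held the intronic peak of madf-11 alone (1 of 10 genes, against 5.02% of all protein-coding genes). The list of replicate 2, with 863 peaks, held the madf-10 peak alone (1 of 10 genes, against 4.67%). The upstream peak of madf-11 was in neither, with scores of 762 in replicate 1 and 93 in replicate 2, while its signals differed little. The score is a whole number up to 1000 that the authors made from the IDR, and the lowest in the series-wide thresholded list was 830.

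**Figure D1:**
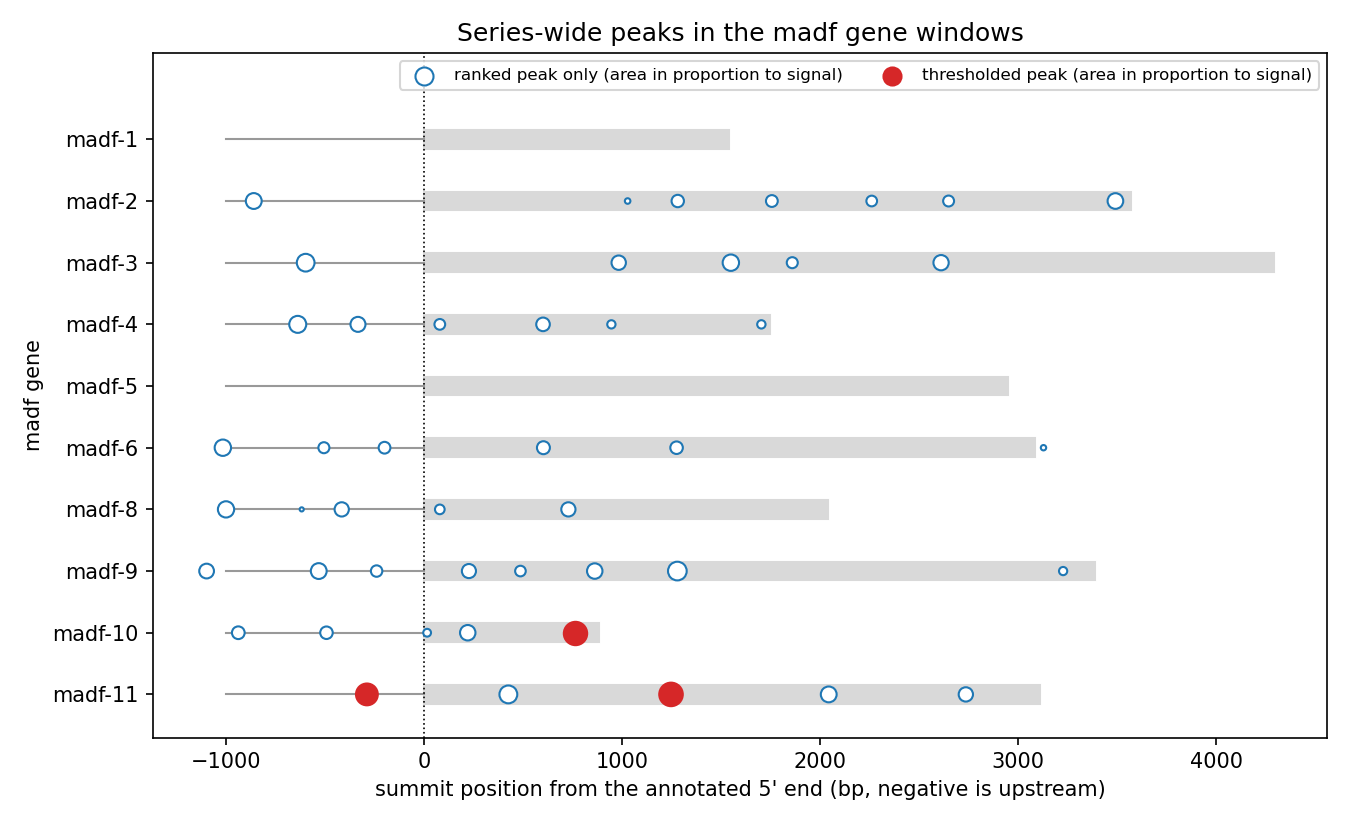
Summits of series-wide peaks along each madf gene window, with position from the annotated 5' end in bp on the x axis and 1 gene per row. Grey bars are genes, lines the 1000 bp upstream, open circles ranked peaks that were not kept, filled circles the 3 thresholded peaks at madf-10 and madf-11, and circle area is in proportion to signal. madf-1 and madf-5 have no circle, and the circles of madf-3 are all open.

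The tagged gene itself, madf-3 (WBGene00019218, chromosome II from 4334748 to 4339038, plus strand), had 5 ranked peaks in the series-wide list and none in any thresholded list. The strongest, from 4334041 to 4334260, had its summit at -597 bp, in the 3' UTR of H20J04.4, the gene that ends 100 bp before madf-3 on the same strand. Its series-wide signal was 48.1 and its score 574, short of 830. In replicate 1 the overlapping peak had 30.6, and replicate 2 had no ranked peak there. The next in the series-wide list, in an intron 1549 bp into madf-3, had a signal of 41.2.

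The replicates shared some of their places at madf-3. Replicate 1 ranked 4 peaks in the window, with signals of 30.6, 28.9, 26.5 and 12.5. Replicate 2 ranked 2, with 17.2 and 15.9, 2624 and 3116 bp into the gene, and each overlapped one of replicate 1, those with 12.5 and 26.5. The 2 strongest peaks of replicate 1 had no counterpart in replicate 2. The 5' end of madf-3 lay in a stretch of 12688 bp with no ranked peak in replicate 2, and in one of 1970 bp in replicate 1. Of the stretches between neighbouring peaks in replicate 2, 1.03% were at least as long. A long stretch holds more positions than a short one, so this share understates how often a 5' end lies in one. The share of 5' ends was not counted. Ranked by the highest signal in its window, madf-3 stood at place 5929 of 19973 genes, and at 3282 in replicate 1 and 13641 in replicate 2. The other ranked list made from both replicates, the one that holds the conservative peaks, has neither the peak at -597 bp nor that at 1549 bp. It has 2 peaks at madf-3, the higher with a signal of 37.1, which puts the gene at place 11229, with 56.2% of genes above it.

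By sequence, the proteins closest to MADF-3 were those of madf-4, madf-9 and madf-5, then madf-10 and madf-8. Each longest protein was translated from the annotation and searched against all 19973 with phmmer, and these 5 matched madf-3 with an E value of at most 0.001 in at least 1 direction. Of the 45 pairs in the family, 9 matched in at least 1 direction. The products of madf-1, madf-6 and madf-11 matched no other madf protein. MADF-11, whose gene has 2 of the 3 thresholded peaks, is thus not among the close relatives of MADF-3.

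Of the 3 closest relatives, none had a thresholded peak. The same window rule called only 12.2% of all protein-coding genes, so a count of none among 3 genes shows little. madf-10, a weaker match to MADF-3, had such a peak. The strongest series-wide ranked peak at madf-9 (WBGene00022608, chromosome IV), in coding sequence 1279 bp into the gene, had a series-wide signal of 53.6 and a score of 672, the nearest to 830 among the madf genes without a thresholded peak. Its signal was 15.1 in replicate 1 and 36.3 in replicate 2, or 25.7 ± 15.0 (SD, n = 2), and replicate 1 had a stronger peak, of 24.6, at 866 bp. At madf-4 (WBGene00011575, chromosome V) the strongest series-wide peak was at -637 bp, between genes, with 26.8 and 20.3 in replicates 1 and 2, or 23.6 ± 4.56 (SD, n = 2). madf-5 (WBGene00007242, chromosome II) had no peak in the series-wide ranked list or in that of replicate 2. In replicate 1 it had 4 ranked peaks, the strongest with a signal of 22.2 in coding sequence.

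The other genes had weak peaks or none. At madf-2 (WBGene00009461, chromosome I) the strongest ranked peak of the series-wide list was at -859 bp, with a signal of 38.6. It overlapped peaks of 15.3 in replicate 1 and 12.9 in replicate 2, or 14.1 ± 1.70 (SD, n = 2), which did not overlap each other. Each replicate had a stronger peak elsewhere at madf-2, with 16.6 in replicate 1 at 1757 bp and 22.3 in replicate 2 at 3427 bp. At madf-6 (WBGene00016930, chromosome I) the strongest series-wide peak was at -1015 bp, in an intron of the upstream gene C54G6.8, with 26.8 and 19.7 in replicates 1 and 2, or 23.2 ± 5.00 (SD, n = 2). Replicate 1 had a stronger one, of 29.2, at -199 bp. At madf-8 (WBGene00008118, chromosome III) the strongest series-wide peak was at -999 bp with a series-wide signal of 40.6, in coding sequence of gsr-1, which encodes glutathione reductase and starts 74 bp away in the other direction. Neither replicate's own list held an overlapping peak there.

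madf-1 (WBGene00021942, chromosome IV from 830358 to 831896, minus strand) had no peak in its window in any list. Its 5' end and those of other protein-coding genes, 4 in all, lay in a stretch of 36474 bp with no series-wide ranked peak. Of 113496 stretches between neighbouring ranked peaks, 74 were at least this long. The 5' end of madf-5 lay in one of 12555 bp, a length reached by 0.841% of them, with 6 protein-coding 5' ends. These shares count stretches and not genes. Since a long stretch holds more positions, they do not tell how many 5' ends lie in stretches of such length. The stretches at madf-1 and madf-5 are empty in the series-wide ranked list, and whether peaks there are missing from it is not known. In all, 14.7% of protein-coding genes had no series-wide ranked peak in the window, and 2 of 10 madf genes had none.

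**Figure D2:**
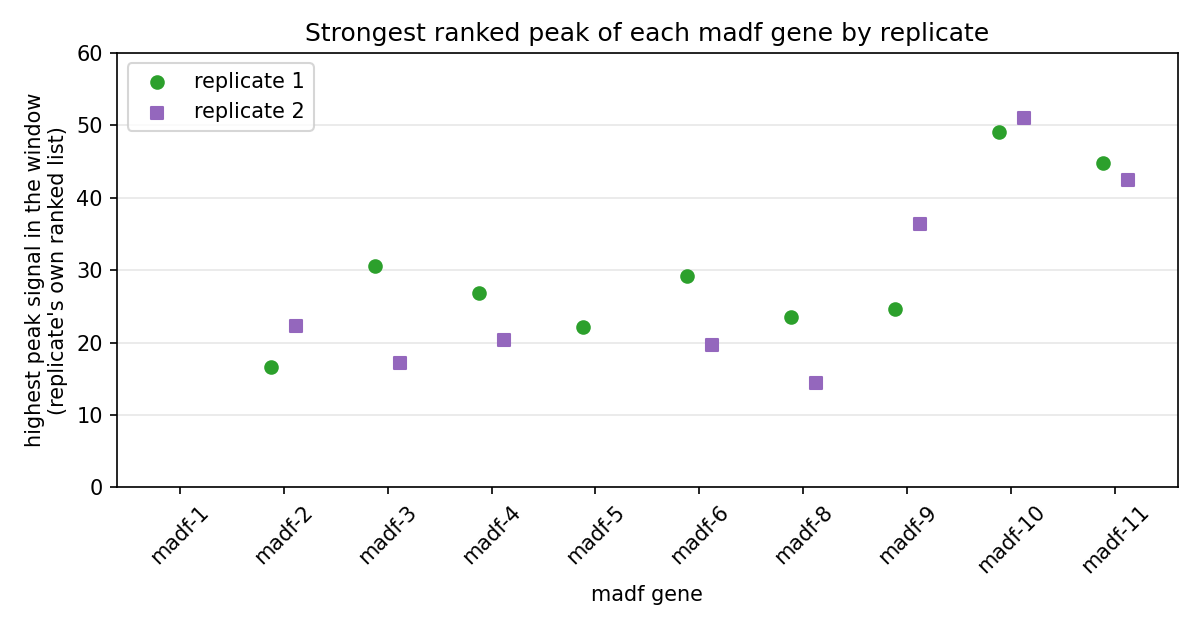
Highest peak signal in each madf gene window, on the y axis with a linear scale from 0 and in the unit of the deposited lists, taken from the ranked list of replicate 1 (circles) and of replicate 2 (squares), with 1 point per replicate and no error bars. The points of madf-10 and madf-11 lie between 42.5 and 51.0 and the next highest is 36.3 (madf-9, replicate 2). madf-5 has a point for replicate 1 only and madf-1 has none.

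Across the family the density of series-wide candidate peaks was close to that of all genes. The 10 windows, 36.6 kb in all, held 47 series-wide ranked peaks, or 1.28 per kb, against 1.26 per kb over the windows of all protein-coding genes. The other ranked lists varied, with 1.15 against 0.869 per kb in replicate 1 and 0.874 against 0.891 in replicate 2. In the other ranked list made from both replicates it was 1.12 against 1.27. Of the 47 series-wide peaks, 17 had the summit in coding sequence, 13 in introns, 9 between genes, 6 in 3' UTRs and 2 in 5' UTRs, counting neighbours' genes. A total of 16 lay upstream of the madf gene's 5' end and 31 at or downstream of it. For thresholded peaks the density was 0.0820 per kb against 0.0367, a figure that rests on 3 peaks. Of 42 ranked peaks of replicate 1 in these windows, 22 (52.4%) met one of replicate 2, compared with 58.5% of all ranked peaks of replicate 1. In the other direction, 22 of 32 (68.8%) met one of replicate 1, compared with 56.4% of all ranked peaks of replicate 2.

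The levels at madf-10 and madf-11 stood apart within the family. The highest ranked signal in the window was 83.7 for madf-10 and 85.0 for madf-11, and between 38.6 and 53.6 for the other 6 genes with a ranked peak. The median over the 8 was 46.2, against 42.4 over the 17028 protein-coding genes with a ranked peak. The median was 26.8 against 22.8 in replicate 1, 21.3 against 22.9 in replicate 2, and 42.7 against 42.5 in the other ranked list made from both replicates, so the family was not above all genes in each. The gap was wider in the 1000 bp upstream alone. There the series-wide median was 40.8 over 8 madf genes, against 32.3 over the 15180 genes with a ranked peak. This difference was not tested. By the series-wide signal in the whole window, 5.02% of genes stood above madf-11 and 5.22% above madf-10. The next was madf-9, with 20.4% above it, followed by madf-3 with 29.7%. madf-4, madf-6, madf-8 and madf-2 followed in this order, with 38.6 to 44.3. In each replicate madf-10 was highest and madf-11 next. The order of the rest was not kept. madf-3 came next in replicate 1 with 30.6, but in replicate 2, with 17.2, it was above madf-8 alone among the genes with a peak. madf-9 came next in replicate 2 with 36.3, and in replicate 1, with 24.6, it was below madf-3, madf-6 and madf-4.

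**Figure D3:**
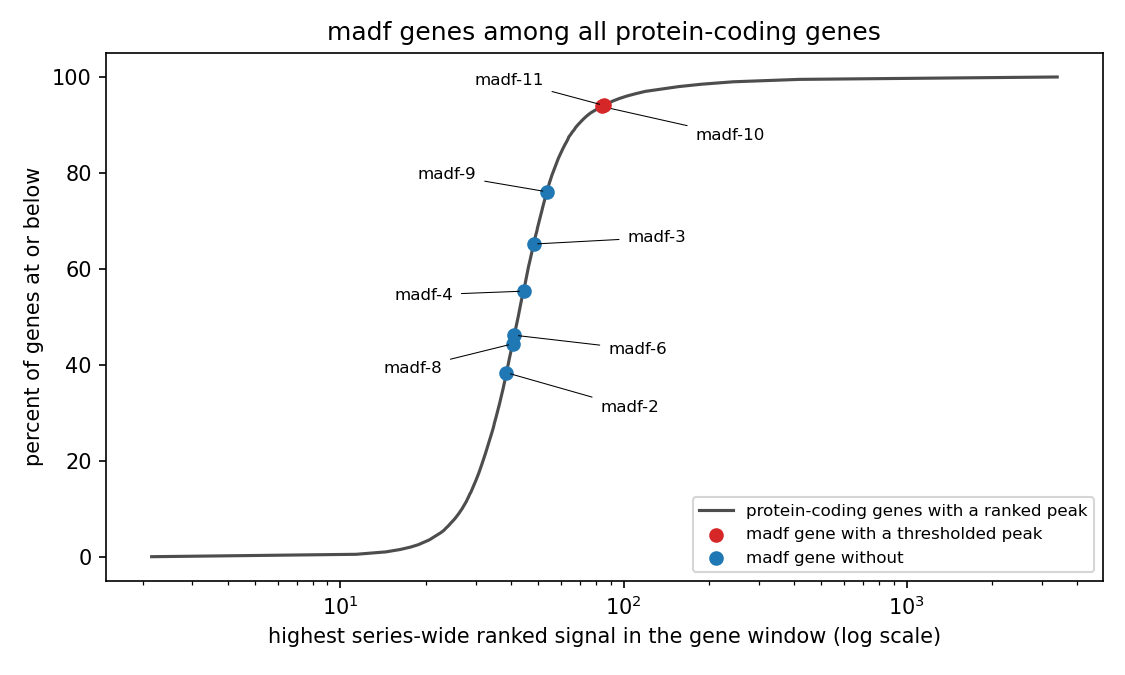
Highest series-wide ranked signal in the gene window on a log x axis against the percent of protein-coding genes at or below it on the y axis, for the 17028 genes with a ranked peak (line) and 8 madf genes (points). madf-10 and madf-11, which have a thresholded peak, lie near the top of the curve at 83.7 and 85.0, and the other 6 lie on its steep middle part between 38.6 and 53.6.

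The capitals in the upstream peak of madf-11 mark words that were common around MADF-3 summits. Words were compared between the 75 bp on either side of a summit and windows of the same size 400 bp to one side, with both strands counted, and the word with the largest difference was taken. Among the 300 strongest thresholded peaks this was CGCGACGC, in 60 summit windows and 4 flanks. Among all 2741 it was AGACGCAG, in 140 and 32. Both were chosen from these data and share the letters GACGC. The madf-11 upstream peak, at place 1376 by signal, was among the 2741 but not the 300.

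The upstream peak of madf-11 held CGCGACGC at bases 8 to 15 and the reverse complement of the other word, CTGCGTCT, at bases 171 to 178, counted from the first base printed. Their centres were about 99 and 64 bp from the summit. The first thus lies outside the summit window in which words were sought, and the second inside it. This peak was therefore among those from which the second word was chosen. Of 2594 thresholded peaks of 220 bp, 2.78% held the first word, 5.55% the second and 9 peaks both. Of 113320 ranked peaks of this width, 0.607% held the first, 1.77% the second and 20 both. The words were picked as common in thresholded peaks, so a higher share there follows at least in part from the choice. The intronic peak held neither word. Both madf-11 peaks had 50.9% G and C, against a median of 43.3% over the thresholded peaks.

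The words were also present at madf genes with no thresholded peak. In the 1000 bp upstream, CGCGACGC was found at madf-2, madf-9 and madf-11, and at 1.92% of all protein-coding genes. AGACGCAG was found upstream of madf-2 and madf-11, and at 7.97% of all. The window of madf-3 held neither. These are matches of letters and not binding sites.

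The genes whose promoter signal was most like that of madf-11 were syp-4, W01A8.2, dos-1 and Y22D7AL.6. Likeness was the difference in log2 of the mean signal of the 2 replicates at the strongest thresholded promoter peak, over 1227 genes with a value in both. syp-4, a protein of the synaptonemal complex that holds paired chromosomes together in meiosis, had 38.3 ± 2.47 (SD, n = 2), and W01A8.2 had 38.3 ± 6.54 (SD, n = 2). Just below madf-11, at place 737, were dos-1, from a family of secreted and membrane Notch co-ligands, with 38.1 ± 15.7 (SD, n = 2), and Y22D7AL.6, with 38.1 ± 2.38 (SD, n = 2). These genes were picked for means close to that of madf-11, so differences below the replicate spread follow from the choice. The order among them is within that spread. madf-3 has no thresholded promoter peak, so it has no such neighbours.

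Genes for other proteins with Myb or SANT domains, the fold to which MADF is related, were read in the same way. The list of 12 was chosen with earlier results of these data known, so its share is a description only. Of 12 listed, 4 had a thresholded promoter peak (against 6.26% of all protein-coding genes). The strongest was at ekl-4, the homologue of DMAP1, at -160 bp with 91.7 and 70.7 in replicates 1 and 2, or 81.2 ± 14.8 (SD, n = 2). isw-1, the ISWI chromatin remodeller, had 47.2 and 82.7 at -66 bp, or 64.9 ± 25.1 (SD, n = 2). cdc-5L, a Myb protein of the spliceosome, had 34.8 ± 4.94 (SD, n = 2), and rcor-1, a CoREST homologue, had 32.5 ± 8.85 (SD, n = 2). The other 8, snpc-4, spr-1, gei-8, swsn-1, egl-27, lin-40, dnj-11 and ada-2, had no thresholded promoter peak, although egl-27 had 2 thresholded peaks elsewhere in its window. One protein without a madf name, txt-18, was matched by a madf protein (madf-1), and its gene had no thresholded peak in its window.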

How the data were processed

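ChIP-seq peak lists of 2 biological replicates of 1 group were used, on build ce11 per the labels. No label or header names the aligner or peak caller. The deposited lists give a signal, a score and, in the ranked lists, a −log10 of the IDR capped at 5 for each peak. The authors' signal was used as deposited, and genes were placed by signal within each list. The means and SDs over replicates, and the likeness between genes, combine signals of the 2 replicates' lists. The plot of the highest signal per replicate also sets these lists side by side. Whether the 2 lists share a scaling is not known. Genes came from Ensembl (assembly WBcel235), on whose chromosomes every peak end fits. A peak counted with an overlap of at least 1 bp, and coordinates are 1-based. The replicate signal of a peak is the highest overlapping one in that replicate's own ranked list. No test was run, since the samples form 1 group. SDs cover the spread between these samples only, and any difference in scaling between their lists is part of it. Proteins were searched with HMMER 3.4, and tables made with Python 3.11.15 and pandas 2.3.3. The counting was tested on simulated data.

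The members and lists were chosen with earlier results of these data known. Named genes were the members, genes nearest to or within 500 bp of their thresholded peaks, the 2 genes above and below madf-11 by promoter signal, and Myb, SANT and phmmer-matched genes with a thresholded promoter peak. Others named were chosen after their values were seen. A total of 8 columns on compared sets in 1 ranked list, tied to no sample by any label, were not used. Results were recomputed with other windows, with summits in place of overlap, with each replicate's list, and with the conservative and the stronger 1370 peaks.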

Additional observations from a re-analysis of the deposited data

How the results depend on the processing

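Both madf-10 and madf-11 were called again in the conservative list, in the stronger 1370 peaks and with summits in place of overlap. They were also called with windows from 500 or 2000 bp upstream. In the stronger 1370 peaks madf-11 was called by its intronic peak, since its upstream peak was at place 1376. With 1 replicate's list alone, 1 gene and 1 peak were called for either replicate (lowest and highest 1), a different gene in each, and with 1000 bp upstream only 1 gene. The promoter count of 1 became 0 with summits within 200 bp, 2 within 1000 bp, and 0 in either replicate's list. With the 5' ends of all transcripts, or from the conservative list, it was 1. The place of madf-3 among 19973 genes ranged from 3282 to 13641 between the single replicates, that of madf-10 from 722 to 845 and that of madf-11 from 1028 to 1105. With 1000 bp upstream only, madf-10 fell to place 10846, because its peak lies inside the gene. madf-9 fell from 4076 to 5221, and the other madf genes with a series-wide ranked peak rose. Among them, madf-3 rose from 5929 to 2838, by the peak at -597 bp that replicate 2 lacks. Replicate signals taken at the nearest summit gave the same means for the 6 genes with a value in both replicates. With a single overlapping peak per replicate, as at madf-10 and madf-11, both rules take the same peak. These equal means are therefore no check of the result. Signals as paired by the authors were not run, since no label ties those columns to a replicate. Other causes were not tested. No paired analysis was possible because there is 1 group. Peaks without read counts set no limit of detection, so a gene with no listed peak is not shown to be unbound.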
